A study of Mus musculus with 16 samples.

Results

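Hox genes encode transcription factors that bind DNA through a homeodomain, and they give cells of the embryo their position along the head-to-tail axis. In mammals they lie in clusters in which the order of the genes along the chromosome follows the order of their domains in the body: genes with low paralogue numbers act in the hindbrain and neck, those with high numbers at the tail end. Paralogues are the matching genes of different clusters. In the spinal cord and the dorsal root ganglia (DRG), the ganglia that hold the cell bodies of the body's sensory neurons, Hox genes set segment identity and the targets that axons reach. The members are all genes whose symbol is Hoxa, Hoxb, Hoxc or Hoxd followed by a number. There were 39 of them among 53379 gene IDs, 11 in cluster A, 10 in cluster B, 9 in cluster C and 9 in cluster D. The choice used names only and no measured value.

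In the coordinates of the deposited files (GRCm38), cluster A spans chr6:52155590-52260880 on the minus strand. Cluster B spans chr11:96194316-96368256, cluster C chr15:102921103-103036852 and cluster D chr2:74668310-74765142, all on the plus strand. Each member carries the homeobox, the coding stretch of the homeodomain, and the following 51-base parts of it (homeodomain residues 42 to 58) are shown for Hoxc8 and Hoxb9, which were both lower after the pulldown. Capitals mark the 18 bases that encode residues 48 to 53, in the helix that lies in the major groove of DNA. They were read from GENCODE M21 transcripts (GRCm38), 5′ to 3′ on the coding strand.
Hoxc8 (chr15:102992694-102992744, exon 2 of 2): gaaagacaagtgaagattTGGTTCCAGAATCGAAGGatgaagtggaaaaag
Hoxb9 (chr11:96274782-96274832, exon 2 of 2): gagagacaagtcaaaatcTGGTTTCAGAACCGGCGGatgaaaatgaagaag

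Over the whole homeobox of 180 bases, 42 pairs of members with the same paralogue number were 67.2% to 93.9% identical, with a median of 80.6%. The 172 pairs of the same cluster had a median identity of 61.7%, and the 527 pairs that shared neither had 60.6%. The longest run of bases common to transcripts of members with no shared exon was 52, between Hoxa6 and Hoxb4, and the median over 739 pairs was 15. Runs of at least 50 bases were found in 2 pairs, Hoxa6 with Hoxb4 and Hoxb9 with Hoxc9. Only the longest transcript of each member was compared, and the 50 bases were not set by a read length. Whether the authors' counting split reads between members was not tested.

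The study compared the RNA that nociceptors, the pain-sensing neurons, hold on their ribosomes with the RNA of the whole ganglion, in female and male mice. All mice were naive Nav1.8Cre/Rosa26fstrap littermates on the C57BL/6J background, 8 to 12 weeks old. Cre driven from the Scn10a (Nav1.8) promoter switches on an EGFP-L10a ribosomal protein, so that ribosomes of Nav1.8 neurons can be pulled down (TRAP, translating ribosome affinity purification). Ganglia of 3 mice of a sex were pooled, 4 pools a sex and 24 mice in all, and each pool gave an IP library (RNA of the pulldown) and an IN library (total RNA of whole DRG), which made 16 libraries. The IP group thus holds 4 female and 4 male libraries and so does the IN group, and every group carries both the Cre and the TRAP allele. The spinal levels of the ganglia in a pool were not given in the sources used here. Each pool is separate, but a sex difference rests on 4 pools a side.

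Values are TPM (a gene's share of the transcripts of a library, corrected for gene length and scaled to a constant total), which keep no read counts, so the depth of each library is unknown. The share of TPM on protein-coding genes was 44.9% to 79.5% in IP and 9.58% to 13.3% in IN. Deposited TPM of the 2 fractions were therefore put on a common scale, by the median ratio over the tested genes above 0 in every library. Levels below are these scaled TPM. Differences are log2 changes of scaled TPM + 1, IP minus IN or female minus male, which understate the change of low genes. Scn10a, the gene whose promoter drives the tag, stood at 381 ± 46.8 scaled TPM in IP, against 125 ± 12.4 in IN (SD over 8 libraries; log2 change 1.60, limma adjusted p = 7.04e-08). All 9 nociceptor markers were higher in IP (median 1.59). All 35 tested of 36 markers of satellite glia, Schwann cells, fibroblasts, endothelium, mural cells, macrophages and skeletal muscle were lower in IP. Their summed level was 651 to 1675 scaled TPM in IP, with the highest in female pool 2 and 1260 in the next library, against 4310 to 5861 in IN, and none of them was at 0 throughout IP. Of 6 spinal cord markers 1 could be tested and did not pass, and their sum was 0.491 to 1.39 in IP and 1.48 to 8.45 in IN.

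Of the 39 members, 31 were above 0 in all 16 libraries. Hoxd12 and Hoxd13, which act at the tail end and in limbs and genitals, were listed at 0 in every library, and Hoxb1, a hindbrain gene, was above 0 only in the male pool 1 IN library. A mean deposited TPM of at least 1 in IP or IN, the condition for a test, was met by 26 members. It was met in both fractions by 14, in IP only by 11 and in IN only by Hoxd4, so the members tested were partly chosen by their level and their counts are a description. Deposited TPM run higher in IP (scaling factors 1.65 to 2.69, against 0.375 to 0.532 in IN), which made passing through IP easier. Of those 11, Hoxa3, Hoxa6, Hoxb4, Hoxc4, Hoxc10 and Hoxd3 were called lower in IP after scaling and none was called higher. The 13 members not tested include Hoxa2, Hoxa11, Hoxa13, Hoxb1, Hoxb8, Hoxb13, Hoxc5, Hoxc11, Hoxc12, Hoxc13, Hoxd12 and Hoxd13.

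The most abundant members in IP were Hoxd1 and Hoxa7. Hoxd1, known in the mouse for patterning nociceptor circuits in the embryo, had a mean of 10.6 ± 0.905 scaled TPM in IP, against 7.51 ± 0.650 in IN (SD, n = 8 libraries, as for all means of a fraction). Hoxa7, a gene of the thoracic region, had 10.3 ± 0.717 in IP and 10.2 ± 0.842 in IN. In IP they were followed by Hoxb5 (8.64 ± 1.29), Hoxd8 (7.25 ± 0.930), Hoxa9 (5.66 ± 0.399) and Hoxa10 (4.75 ± 0.637). In IN the order was Hoxa7, Hoxd1, Hoxd8 (6.92 ± 0.697), Hoxc6 (6.24 ± 0.830), Hoxa9 (5.74 ± 0.661) and Hoxb5 (4.98 ± 0.521). Neighbours in this order had overlapping ranges in 24 of 25 pairs of the tested members in IP, and in 24 of 25 in IN. The exception in IP was the step below Hoxa10, whose lowest library (3.72) lay above the highest of Hoxa5 (3.68).

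**Figure D1:**
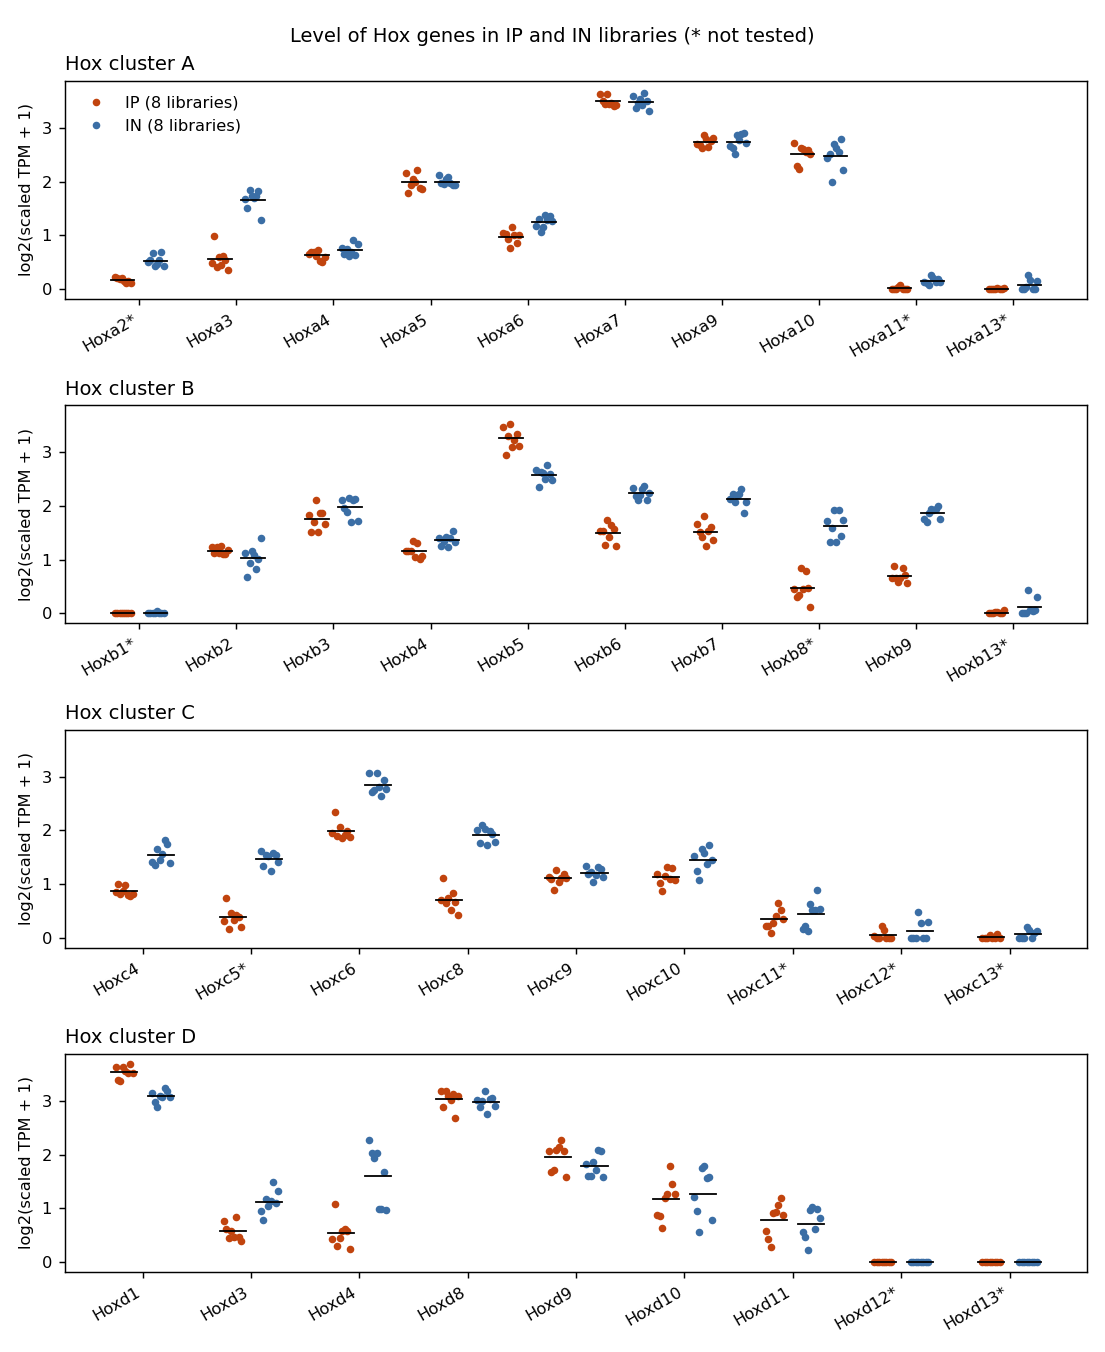
Level of the Hox genes, as log2(scaled TPM + 1), in the 8 IP libraries (left, orange) and the 8 IN libraries (right, blue), by cluster and in order of paralogue number; lines are means and asterisks mark genes not tested. Hoxd1 and Hoxb5 lie higher in IP, Hoxa3, Hoxb9 and Hoxc8 lie lower in IP, and Hoxa7 and Hoxa9 lie at like levels in both.

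After scaling, 3 of the 26 tested members were higher in IP than in IN, 13 were lower and 10 did not pass. These calls are from limma with the pool as a block, at an adjusted p under 0.05. On deposited TPM with no scaling, the median of all tested genes was 1.84 higher in IP, and 22 members were higher and 0 lower. With changes taken relative to that median 2 were higher and 18 lower. On unscaled TPM, members low in IN show less of the 1.84 shift, so taking it off pushes them down. The 18 are therefore no estimate to set beside the 13 lower after scaling. Over all 16099 genes tested, 79.4% were called, 40.5% higher and 38.9% lower. A call is therefore the usual outcome of this comparison, and 16 of 26 members with one is no excess over it. The median change of the tested members was -0.16, beside 0.02 for all tested genes. The members called higher were Hoxb5, Hoxd1 and Hoxd9. Those called lower were Hoxa3, Hoxa6, Hoxb3, Hoxb4, Hoxb6, Hoxb7, Hoxb9, Hoxc4, Hoxc6, Hoxc8, Hoxc10, Hoxd3 and Hoxd4. Apart from unscaled TPM, Hoxb5 and Hoxd1 of the higher and 8 of the 13 lower members kept their call in every alternative that gave a value. Those 8 were Hoxa3, Hoxb6, Hoxb9, Hoxc4, Hoxc6, Hoxc8, Hoxd3 and Hoxd4. A lower call kept relative to the median gene adds little, since that setting pushes low members down. Hoxd3 gave a value in 12 alternatives and Hoxd4 in 11, and Hoxd4 met the condition for a test through IN only, where it is high. In bulk RNA fewer cells of a type and less RNA per cell cannot be told apart, and the part of the non-neuronal markers given above in these changes was not tested.

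By cluster, 0 of 7 tested members of cluster A were higher and 2 lower, 1 of 7 in cluster B was higher and 5 lower, 0 of 5 in cluster C were higher and 4 lower, and 2 of 7 in cluster D were higher and 2 lower. The median changes were -0.01 in cluster A, -0.21 in B, -0.69 in C and 0.06 in D. By paralogue number, 1 of 5 tested members numbered 1 to 3 was higher and 3 lower, 1 of 13 numbered 4 to 8 was higher and 8 lower, and 1 of 8 numbered 9 to 13 was higher and 2 lower. All 3 tested members of paralogue number 3 and all 3 of number 6 were lower. Under quantile normalization, though, Hoxb3 stood at 0.23 and Hoxa6 at 0.11. Beside these counts, 40.5% of all tested genes were called higher and 38.9% lower. Number 9 held a member of each kind: Hoxd9 was called higher, Hoxb9 lower, and Hoxa9 and Hoxc9 neither.

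**Figure D2:**
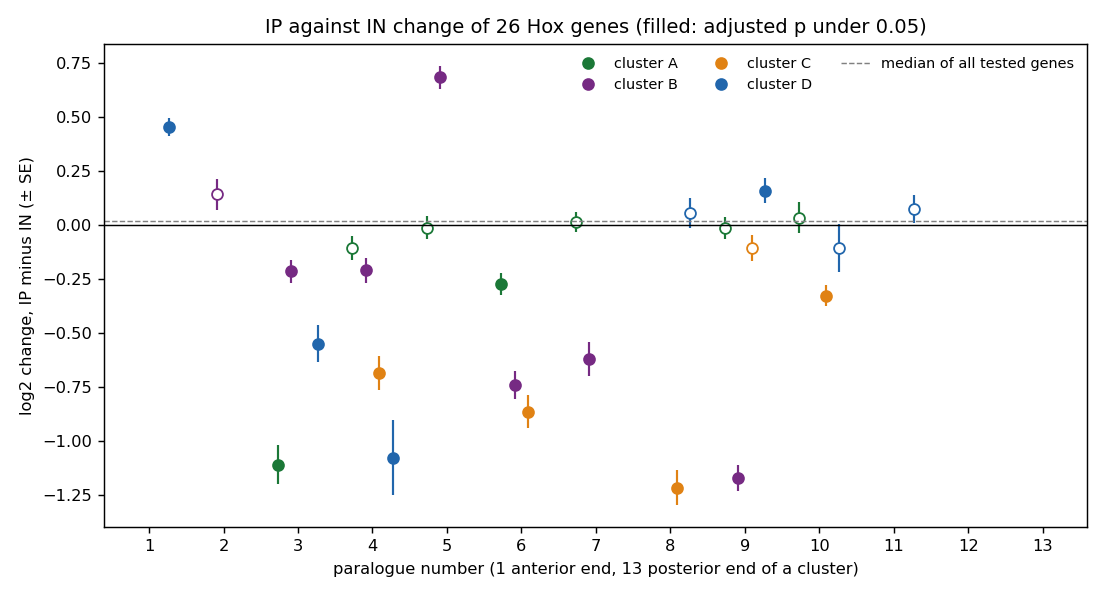
Log2 change of the 26 tested Hox genes, IP minus IN after scaling between libraries, with its SE, against paralogue number and coloured by cluster; filled points passed an adjusted p of 0.05 and the dashed line is the median of all tested genes. Hoxb5 (0.68) and Hoxd1 (0.45) stand highest and Hoxc8 (-1.21), Hoxb9 (-1.17) and Hoxa3 (-1.11) lowest, with cluster C points below 0.

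Among the members of the anterior end (paralogue numbers 1 to 3), Hoxd1 rose and the number 3 genes fell. Hoxd1 had 9.38 at the lowest, 10.7 at the median and 11.9 scaled TPM at the highest in IP, against 6.42, 7.48 and 8.48 in IN. The ranges did not overlap and IP was higher in 8 of 8 pools (log2 change 0.45 ± 0.04 SE, limma adjusted p = 2.41e-06). Hoxd1 shares no exonic base with another annotated gene.

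Hoxa3, needed for pharyngeal arch organs such as thymus and parathyroid, had 0.280, 0.428 and 0.991 scaled TPM (lowest, median and highest) in IP, against 1.45, 2.27 and 2.59 in IN. Every IP library lay below every IN library (log2 change -1.11 ± 0.09, limma adjusted p = 1.18e-06). The highest IP value was that of female pool 2, and without that pool the change was -1.20. Other annotated genes share 27.1% of the exonic bases of Hoxa3, mostly on the other strand. Hoxd3 (-0.55, adjusted p = 1.58e-04) and Hoxb3 (-0.21, adjusted p = 0.00365), its paralogues, were lower in all 8 pools, but other genes share 62.8% and 52.9% of their exonic bases, and Hoxb3 lost its call without a filter (-0.09) and turned to 0.23 under quantile normalization. The sources used here do not name the strand setting of the counting, so reads of a gene and of its antisense partner cannot be told apart. The shared bases of Hoxb3 all lie on the other strand. Hoxd3 shares 62.3% of its exonic bases on its own strand, where a strand setting would not help, and 8.78% on the other. Hoxb2, a hindbrain gene, did not pass (0.14, adjusted p = 0.0912), but did without male pool 4 (0.20, adjusted p = 0.017), without a filter (0.23) and under quantile normalization (0.50). Relative to the median gene, a setting that pushes low members down, it was called lower (-0.48).

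In the middle of the clusters (numbers 4 to 8), Hoxb5 was the member that rose. Hoxb5, known in the mouse for roles in neural crest cells and the enteric nervous system, had 6.77, 8.63 and 10.5 scaled TPM (lowest, median and highest) in IP, against 4.13, 5.08 and 5.80 in IN. The ranges did not overlap and 8 of 8 pools were higher in IP (log2 change 0.68 ± 0.05, limma adjusted p = 9.05e-07). Its mean in IP was 1.73 times that in IN. An antisense gene, Hoxb5os, overlaps 3.59% of its exonic bases and stood at 0.637 ± 0.263 in IP and 0.252 ± 0.165 scaled TPM in IN (0.38, limma adjusted p = 0.00774). It met the condition for a test through IP only, where it is high.

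Hoxb6 and Hoxb7, the next genes of cluster B after Hoxb5, had the opposite direction. Hoxb6 averaged 1.84 ± 0.334 scaled TPM in IP and 3.72 ± 0.324 in IN (log2 change -0.74, limma adjusted p = 2.04e-06). Hoxb7 averaged 1.89 ± 0.364 in IP and 3.42 ± 0.409 in IN (-0.62, adjusted p = 3.18e-05), and its call was lost under quantile normalization (-0.17, adjusted p = 0.0953). For both, the ranges of IP and IN did not overlap. Hoxa5, a gene of the lung and the neck region and the paralogue of Hoxb5, averaged 2.99 ± 0.425 in IP and 3.01 ± 0.205 in IN and did not pass (adjusted p = 0.833), but was called higher under quantile normalization (0.41).

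Hoxc6, the most abundant member of cluster C and active at forelimb level, had 2.63, 2.80 and 4.05 scaled TPM (lowest, median and highest) in IP, against 5.26, 5.93 and 7.42 in IN (log2 change -0.86 ± 0.08, limma adjusted p = 2.25e-06). Hoxc8, which in the mouse shapes the motor pools and the sensory connections of forelimb muscles, had 0.334, 0.608 and 1.16 in IP, against 2.33, 2.89 and 3.26 in IN (-1.21 ± 0.08, adjusted p = 2.86e-07). The ranges of neither gene overlapped, and the highest IP library was female pool 2 for both. Without that pool the changes were -0.94 for Hoxc6 and -1.3 for Hoxc8. Hoxc4, a gene of the neck region, averaged 0.822 ± 0.113 in IP and 1.94 ± 0.362 in IN (-0.69, adjusted p = 1.42e-05).

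Hoxd4 had 0.179, 0.428 and 1.11 scaled TPM (lowest, median and highest) in IP, against 0.950, 2.51 and 3.82 in IN. Its ranges overlapped, because female pool 2 in IP lay above 3 male pools in IN, but IP was lower in 8 of 8 pools (log2 change -1.07 ± 0.17, limma adjusted p = 1.89e-04). Hoxd4 shares 52.3% of its exonic bases with Hoxd3, Gm28230 and Hoxd3os1, and it passed the condition for a test through IN only, where it is high. Hoxb4 (-0.21, adjusted p = 0.00612) and Hoxa6 (-0.27, adjusted p = 5.19e-04) were lower in all 8 pools, but stood at 0.22 and 0.11 under quantile normalization, and Hoxb4 lost its call without a filter (-0.11). Hoxa4 did not pass (-0.10, adjusted p = 0.109). It was called lower (-1.07) relative to the median gene, a setting that pushes low members down.

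Hoxa7 and Hoxd8 were high in both fractions. Hoxa7 had 9.63, 9.99 and 11.4 scaled TPM (lowest, median and highest) in IP, against 8.99, 10.2 and 11.5 in IN, and the ranges overlapped (log2 change 0.01 ± 0.04, limma adjusted p = 0.791). Its antisense partner Hoxaas3 covers 20.4% of its exonic bases, at 0.132 ± 0.0426 in IP and 0.310 ± 0.121 in IN. Hoxd8 had 5.40, 7.56 and 8.11 in IP, against 5.74, 7.06 and 8.08 in IN (0.06 ± 0.07, adjusted p = 0.484). With no filter on low values, and under quantile normalization, both were called higher (0.17 and 0.12 for Hoxa7, 0.21 and 0.27 for Hoxd8).

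At the posterior end (numbers 9 to 13), Hoxb9 fell and Hoxd9 rose. Hoxb9, a gene of the lower thorax, had 0.487, 0.582 and 0.845 scaled TPM (lowest, median and highest) in IP, against 2.24, 2.72 and 2.99 in IN, with no overlap and IP lower in 8 of 8 pools (log2 change -1.17 ± 0.06, limma adjusted p = 7.63e-08). Its mean in IN was 4.25 times that in IP. Hoxd9 had 1.98, 3.17 and 3.86 in IP, against 2.0, 2.41 and 3.24 in IN, with overlap and IP higher in 6 of 8 pools (0.16 ± 0.06, adjusted p = 0.0244). Hoxd9 did not pass in a fit that ignored the pools (adjusted p = 0.187), nor with a higher filter on low values. It did not pass either without female pool 1 (adjusted p = 0.0577), female pool 4 (0.0569), male pool 1 (0.0649) or male pool 2 (0.0506). Relative to the median gene, a setting that pushes low members down, Hoxd9 stood at -0.04.

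Hoxa9 averaged 5.66 ± 0.399 scaled TPM in IP and 5.74 ± 0.661 in IN (adjusted p = 0.821), but was called higher without a filter (0.13) and under quantile normalization (0.27). Hoxa10, a gene of the lumbar region, had 3.72, 4.94 and 5.56 scaled TPM (lowest, median and highest) in IP, against 2.97, 4.80 and 5.97 in IN, with the ranges overlapping (log2 change 0.03 ± 0.07, limma adjusted p = 0.672; 0.36 and called under quantile normalization). Hoxc9, which in the mouse sets thoracic motor neuron identity, had 0.841, 1.17 and 1.38 in IP, against 1.06, 1.3 and 1.51 in IN, and did not pass (-0.11 ± 0.06, adjusted p = 0.123). It was called lower without female pool 4 (-0.15, adjusted p = 0.0219) and higher under quantile normalization (0.29). Relative to the median gene, a setting that pushes low members down, it was called lower (-0.68). Hoxc10, active at lumbar level, was lower in all 8 pools (1.19 ± 0.219 in IP and 1.76 ± 0.402 in IN, change -0.33, adjusted p = 9.27e-05), but stood at 0.11 under quantile normalization.

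Hoxd10 (1.31 ± 0.598 in IP and 1.53 ± 0.771 scaled TPM in IN, adjusted p = 0.396) and Hoxd11 (0.756 ± 0.379 in IP and 0.660 ± 0.319 in IN, adjusted p = 0.301) did not pass. Relative to the median gene, a setting that pushes low members down, both were called lower (-0.67 for Hoxd10 and -0.86 for Hoxd11). Hoxd11 had deposited means of 1.68 TPM in IP and 0.301 in IN. Under quantile normalization both were called higher (0.27 and 0.31). Of the members numbered 11 to 13 other than Hoxd11, the highest library was at 0.561 in IP (Hoxc11, male pool 2) and 0.856 in IN (Hoxc11, male pool 3). Hoxa13, Hoxb13, Hoxc12 and Hoxc13 were above 0 in 2 to 3 IP libraries and 3 to 5 IN libraries. Female pool 4 had the highest IN level of all 4, at 0.200 for Hoxa13, 0.346 for Hoxb13, 0.390 for Hoxc12 and 0.155 for Hoxc13.

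Of the members that were not tested, Hoxb8 and Hoxc5 came closest to the condition. Hoxb8, which in the mouse is known for its effect on grooming and on pain and touch sensing, had 0.0822, 0.372 and 0.797 scaled TPM (lowest, median and highest) in IP, against 1.5, 2.17 and 2.81 in IN. Hoxc5 had 0.124, 0.282 and 0.674 in IP, against 1.37, 1.89 and 2.05 in IN. Neither gene's ranges overlapped. Over all 39 members, the scaled ranges did not overlap for 13, of which 2 were higher and 11 lower in IP. Among the 26 tested members this was so for 9 (2 higher and 7 lower), where it held for 48.4% of all tested genes (22.4% higher and 26% lower). Hoxc5 is annotated across the spans of Hoxc6, Hoxc8, Hoxc9 and Hoxc10, with 5.37% of its exonic bases shared.

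The makeup of the Hox RNA of a library does not depend on the scaling. Summed over the 39 members, deposited TPM came to 117 to 201 in IP and 36.2 to 53 in IN, and as a share of all protein-coding TPM to 0.0233% to 0.0277% in IP and 0.0325% to 0.0397% in IN. Cluster C held 9.81 ± 1.38% of the Hox sum in IP and 18.1 ± 0.847% in IN, with IP lower in 8 of 8 pools and no overlap. Cluster D held 31.5 ± 1.5% in IP and 24.9 ± 0.737% in IN, higher in 8 of 8 pools with no overlap. Cluster A held 34.6 ± 1.29% in IP and 31.9 ± 1.08% in IN, higher in 8 of 8 pools but with overlapping ranges, and cluster B 24.1 ± 1.93% in IP and 25.1 ± 1.18% in IN, higher in 3 pools.

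Single genes held large shares. Hoxd1 made up 14.1 ± 0.847% of the Hox sum in IP and 8.33 ± 0.461% in IN, and Hoxb5 11.4 ± 1.24% in IP and 5.53 ± 0.425% in IN. With Hoxa7 and Hoxd8, these 4 genes, named after their levels were seen, held 48.7 ± 2.37% in IP and 32.9 ± 1.11% in IN. Paralogue number 6 (Hoxa6, Hoxb6 and Hoxc6) held 7.66 ± 0.892% in IP and 12.6 ± 0.795% in IN, and number 3 held 4.46 ± 0.555% in IP and 7.02 ± 0.538% in IN. By broad zone, numbers 1 to 3 held 20.8 ± 0.690% in IP and 17.3 ± 0.600% in IN, 4 to 8 held 54.6 ± 2.76% in IP and 58.8 ± 2.87% in IN, and 9 to 13 held 24.6 ± 2.45% in IP and 23.8 ± 3.02% in IN. No test was made on these shares. With only the 16 members whose span overlaps no other annotated gene, cluster C stayed lower (4.83% in IP and 9.11% in IN) and cluster D higher (57.4% in IP and 37.0% in IN), while cluster B, without Hoxb5, was lower in IP with no overlap (17.6% in IP and 36.6% in IN). Over these members numbers 1 to 3 held 45.2% in IP and 27.8% in IN, and numbers 4 to 8 held 18.4% in IP and 33.7% in IN, both with no overlap. Among the 16, numbers 1 to 3 are only Hoxd1 and Hoxb1, and cluster D is only Hoxd1, Hoxd9, Hoxd12 and Hoxd13. The shares of both thus mostly follow Hoxd1. Cluster A is here Hoxa10 and Hoxa13, and cluster C is Hoxc4, Hoxc11, Hoxc12 and Hoxc13.

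**Figure D3:**
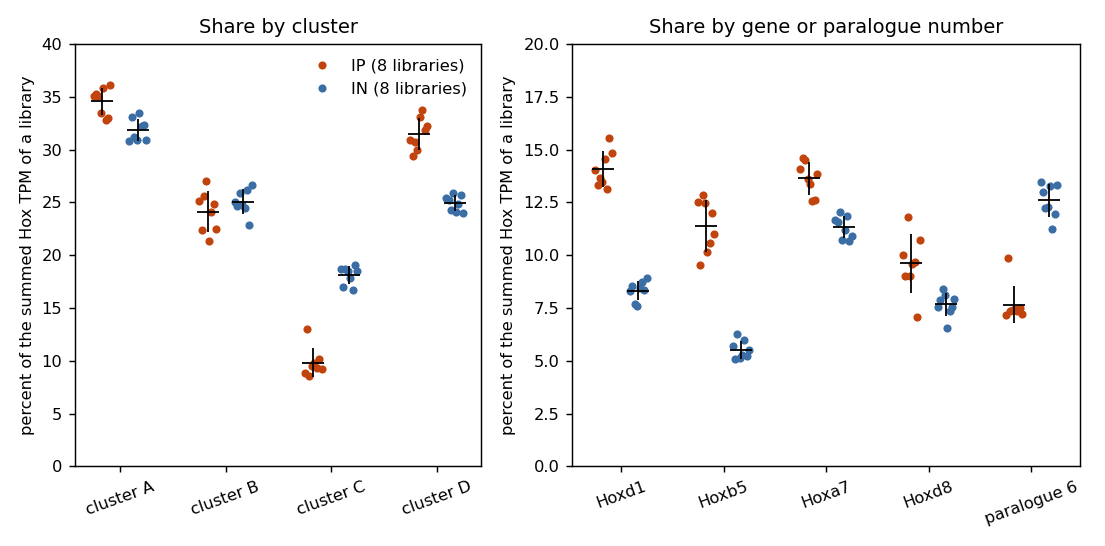
Share of the summed Hox TPM of each library, in percent, by cluster (left panel) and for 4 genes and paralogue number 6 (right panel), with the 8 IP libraries to the left of the 8 IN libraries; black dashes with error bars are means ± SD. Cluster C holds 9.81% in IP and 18.1% in IN and Hoxd1 14.1% in IP and 8.33% in IN, and for both the points of the fractions do not overlap.

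The clusters also hold antisense and other noncoding genes, and microRNAs. Of 46 annotated entries inside the clusters that are not members, 9 were tested, 4 were higher in IP and 2 lower, beside 40.5% higher and 38.9% lower over all tested genes. The higher ones were Hoxaas2 (log2 change 0.55), Hoxb5os, Hoxd3os1 (0.60) and the processed pseudogene Gm11539 (0.52). Hoxaas2, like Hoxb5os, met the condition for a test through IP only, so that its call was favoured by that condition. Hoxd3os1, on the strand opposite to Hoxd3, stood at 4.18 ± 0.426 scaled TPM in IP and 2.41 ± 0.289 in IN (limma adjusted p = 7.59e-07), although Hoxd3 and Hoxd4 were lower. The lower ones were Gm53 (-0.80) and the Mir196a-1 entry (-1.25). Hotairm1 (0.25, adjusted p = 0.137) and Haglr (0.18, adjusted p = 0.0638) did not pass. Of the 24 tested genes nearest to the clusters on either side, 15 were higher and 4 lower, a description beside the same shares of all genes.

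MicroRNA entries in libraries of this kind count reads over the hairpin locus, not mature microRNA. The Mir196a-1 entry, between Hoxb9 and Hoxb13, was at 0.531 ± 0.272 scaled TPM in IP and 2.70 ± 1.05 in IN (limma adjusted p = 7.72e-06). miR-196a is known in the mouse to direct cleavage of the Hoxb8 transcript, and Hoxb8 was the member with the pairing shown here. The site lies in the annotated UTR of exon 2 of 2 at chr11:96284888-96284909 (GRCm38, plus strand; sequence from GENCODE M21), with capitals opposite the seed. In the microRNA (RefSeq, GRCm38.p6) capitals mark the seed, bases 2 to 8. Of the other cluster microRNAs, miR-196b has the same seed as miR-196a, and miR-10a and miR-10b share another.
mmu-miR-196a-5p: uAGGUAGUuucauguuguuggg
mmu-miR-196b-5p: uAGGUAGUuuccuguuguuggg
mmu-miR-10a-5p: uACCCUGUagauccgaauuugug
mmu-miR-10b-5p: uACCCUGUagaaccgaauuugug
Hoxb8 site: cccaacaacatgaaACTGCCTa
Of the 22 bases of the site, 21 were complementary to miR-196a and 1 formed a G:U pair. Among 21901 protein-coding genes searched over their transcripts, 32 reached at least 21 paired bases with G:U pairs counted, and Hoxb8 was the 1 gene with at least 21 complementary bases. The Mir10a entry (0.0803 in IP and 0.583 scaled TPM in IN) and the Mir10b entry (0.0646 in IP and 0.616 in IN) were not tested. The pairing is a description of the letters and not a measurement of cleavage.

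No member was called between the sexes. In IP 0 of 26 tested members passed (limma without a block; 2 at an unadjusted p under 0.05), where 8 of 16099 genes did (0.0497%; 0.0186% higher and 0.0311% lower in females). In IN 0 of 26 passed (2 unadjusted), where 13 genes did (0.0808%; 0.0248% higher and 0.0559% lower in females). For the interaction of sex and fraction 0 of 26 passed (2 unadjusted), where 3 genes did (0.0186%, all of them higher). A p that misses the threshold over 4 pools a sex does not show that the sexes were alike.

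Hoxd4 came nearest to a sex difference in IN. In IP it stood at 0.353, 1.11, 0.225 and 0.366 scaled TPM in female pools 1 to 4 and at 0.490, 0.540, 0.497 and 0.179 in male pools 1 to 4, with overlap. In IN it stood at 3.82, 3.09, 2.84 and 3.08 in female pools 1 to 4 and at 0.981, 0.979, 2.19 and 0.950 in male pools 1 to 4, so that every female pool lay above every male pool. The change in IN was 0.92 ± 0.16 (female minus male, limma adjusted p = 0.338), and it passed without male pool 3 (1.09, adjusted p = 0.00451) and on deposited TPM (0.72, adjusted p = 0.00286). The interaction was -0.86 ± 0.22 (adjusted p = 1). Hoxd3, with which Hoxd4 shares exonic bases, went the other way in IN (-0.28, adjusted p = 0.962).

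Some members of the tail end also varied between pools. In IP, Hoxd10 stood at 0.840, 0.821, 0.546 and 1.29 scaled TPM in female pools 1 to 4, against 1.41, 2.43, 1.73 and 1.40 in male pools 1 to 4, with no overlap (female minus male -0.55 ± 0.15, limma adjusted p = 1). Hoxd11 stood at 0.486, 0.341, 0.206 and 0.886 in female pools 1 to 4 in IP, against 0.899, 1.10, 1.3 and 0.83 in male pools, and female pool 4 lay within the male range (-0.47 ± 0.15, adjusted p = 1). In IN, Hoxd11 stood at 0.473, 0.381, 0.170 and 0.961 in female pools 1 to 4, against 1.02, 0.524, 0.992 and 0.758 in male pools. Hoxc11 in IN stood at 0.115, 0.160, 0.0925 and 0.547 in female pools 1 to 4, against 0.422, 0.430, 0.856 and 0.445 in male pools. In each of these sets, female pools 1 to 3 were low and female pool 4 stood among the male pools or next to them. Hoxd10 in IN differed from them. It stood at 1.31, 0.933, 0.470 and 2.38 in female pools 1 to 4, against 2.47, 1.95, 1.98 and 0.723 in male pools. Male pool 4 thus lay below female pools 1 and 2. Hoxc11 in IP stood at 0.156, 0.164, 0.0573 and 0.210 in female pools 1 to 4, against 0.331, 0.561, 0.432 and 0.280 in male pools. There female pool 4 lay below every male pool.

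**Figure D4:**
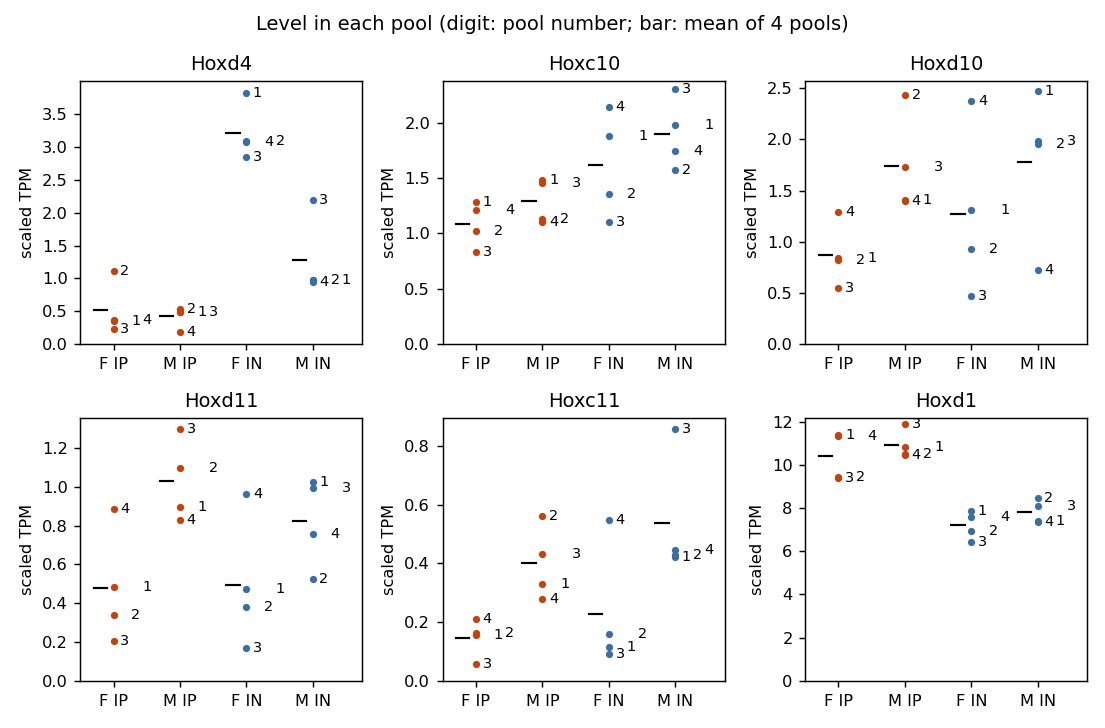
Scaled TPM of 6 Hox genes in each pool, with female and male pools in IP left of female and male pools in IN; digits are pool numbers and bars are means of 4 pools. Female pool 4 stands above the other female pools for Hoxd11 and Hoxc11 in IP and in IN, and Hoxd4 is highest in the 4 female IN libraries.

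The IP and IN libraries of a pool share their ganglia, so the level of each tested member in IP was set against that in IN over the 8 pools. Of 26 relations computed on log2 values, Hoxc10 had the highest Pearson r (r = 0.90, exact permutation p = 0.00263, adjusted p = 0.0684; Spearman rho = 0.86, p = 0.0107, adjusted p = 0.139). Without female pools 3 and 2, the farthest from the median in IN, r was 0.70. Hoxd11 had r = 0.83 (exact permutation p = 0.0122, adjusted p = 0.138; rho = 0.81, p = 0.0218, adjusted p = 0.182), and 0.74 without female pool 3 and male pool 1. Hoxb3 had the highest Spearman rho (0.93, exact permutation p = 0.00223, adjusted p = 0.058; r = 0.78, p = 0.0213, adjusted p = 0.138), and r = 0.78 without male pools 1 and 4. After the means of the sexes were removed, r was 0.89 for Hoxc10, 0.76 for Hoxd11 and 0.78 for Hoxb3. Hoxc4 had the lowest r (-0.53, exact permutation p = 0.176, adjusted p = 0.457) and the lowest rho (-0.74, p = 0.0458, adjusted p = 0.199). Its r was -0.20 without male pools 2 and 3. None of the 26 passed after adjustment, and within a sex there are only 4 pools.

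Hox proteins bind DNA with the PBC and Meis/Prep cofactors, and their clusters are kept silent by Polycomb and active by Trithorax proteins. Of the 9 cofactor genes, 3 were higher and 6 lower in IP (median -0.45, beside 0.02 for all tested genes and 79.4% of them called). Pknox2, the most abundant in IP, stood at 19.5 ± 2.39 scaled TPM in IP and 13.2 ± 0.544 in IN (log2 change 0.52), while Meis2 stood at 2.42 ± 0.365 in IP and 7.79 ± 0.380 in IN (-1.37). Of 22 tested Polycomb genes of 23 listed, 4 were higher and 12 lower (median -0.32). Ezh2, the methyltransferase of dividing cells, stood at 0.893 ± 0.784 in IP and 5.76 ± 0.734 in IN (-1.92), and Phf1 at 14.9 ± 2.51 in IP and 9.74 ± 0.678 in IN (0.55). Of 10 Trithorax group and demethylase genes, 4 were higher, such as Dpy30 (0.87), and 5 lower, such as the demethylase gene Kdm6b (-0.90), with a median of -0.17.

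Of 8 tested of 13 listed embryonic inputs to the clusters, such as retinoic acid receptors and enzymes, 1 was higher and 6 lower (median -0.89). Aldh1a2, which makes retinoic acid, stood at 0.490 ± 0.420 scaled TPM in IP and 4.94 ± 1.06 in IN (-2.02), and Gdf11, a signal for posterior Hox genes in the embryo, was higher (0.17). Of 9 tested genes on a list of other homeodomain factors, meant for sensory neurons, 5 were higher and 3 lower (median 0.23). Isl2 stood at 143 ± 14.9 in IP and 43.8 ± 5.15 in IN (1.69), far above any Hox gene. Prrx1, which the list also held although it is a gene of connective tissue, stood at 0.392 ± 0.343 in IP and 5.03 ± 0.482 in IN (-2.14). Of the large-diameter neuron markers, cells outside the Nav1.8 group for the most part, 5 of 5 were lower (median -2.62).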

How the data were processed

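RNA-seq of 16 libraries from mouse DRG was analysed. Ribosomal RNA was depleted before library preparation, per the labels' protocols. FastQC, STAR 2.2.1, StringTie 1.3.5 and the build GRCm38.p5 are named in the submitters' processing notes. The sources used here do not name the annotation or the strand setting. The authors deposited 1 value per gene and library; these were taken to be TPM because each library sums to 1000000, and lines that repeat a gene ID were added up. Genes were tested where the mean deposited TPM was at least 1 in IP or IN (16099 genes).

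Values were divided by median-of-ratios factors (1.65 to 2.69 in IP, 0.375 to 0.532 in IN) and log2 was taken after adding 1. limma 3.58.1 in R 4.3.3 (intensity trend, two-sided, Benjamini-Hochberg over all tested genes) was fitted for 4 comparisons: IP against IN and the interaction of sex and fraction with the pool as a block, and female against male in each fraction without one. Ranges, shares and figures used Python 3.11.15, pandas 2.3.3, numpy 2.4.6 and matplotlib 3.10.9. Exon sharing came from GENCODE M21. The fit was tested on simulated data.

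The series design text pairs the IP and IN library of a pool. Their deviations from the group mean correlated across genes at 0.014 to 0.414 in the female and 0.0066 to 0.323 in the male pools. Identical libraries were not found (0 pairs).

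Every Hox gene could be named; lowest, median and highest levels were given for the highest gene and the largest and smallest change of a cluster, and up to 3 genes a list were named, with values per pool for genes singled out after their values were seen. The members and gene lists (120 of 121 symbols matched) were chosen with earlier results of these data known. Alternatives were other scalings, filters and pseudocounts, other blocks and leaving out each pool. Some items are not reported here.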

Additional observations from a re-analysis of the deposited data

Results flagged for a closer look

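In groups of 4 pools, 132 sets of values were examined for a pool far from the other 3, and 11 stood apart, where chance alone gives about 1 in 20 (6.6). Female pool 2 in IP was high for Hoxc8 (1.16 scaled TPM, others 0.562 to 0.660) and Hoxd4 (1.11, others 0.225 to 0.366). The summed non-neuronal markers were also highest in that library; their part in these values was not tested. In IP, female pool 4 was high for Hoxb4 (1.55, others 1.25 to 1.25), male pool 2 for Hoxb4 (1.48, others 1.01 to 1.09) and Hoxd3 (0.787, others 0.319 to 0.385), and male pool 1 for Hoxc4 (0.982, others 0.718 to 0.757). Hoxd4 was low in male pool 4 in IP (0.179, others 0.490 to 0.540) and high in male pool 3 in IN (2.19, others 0.950 to 0.981). Of the shares of the Hox sum, cluster A was low in female pool 4 in IP (33.4%, others 35.1% to 35.3%) and high in female pool 2 in IN (33.1%, others 30.8% to 31.2%), and cluster C was low in female pool 2 in IN (17.0%, others 18.5% to 18.7%).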

How the results depend on the processing

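Of 371 changes of single members recomputed for IP against IN, 314 kept their direction and side of the threshold, 18 newly passed, 10 no longer passed and 29 turned. Members called numbered 16; leaving out each pool gave 13 to 17 (2 to 4 higher, 11 to 14 lower), pseudocount 0.1 gave 3 higher and 13 lower, and the fit with no replicate block 2 higher and 13 lower, with Hoxd9 lost. On deposited TPM 22 were higher and 0 lower, with quantile normalization 14 and 8, without a filter 7 and 15 of 37, and at a mean TPM of at least 5 there were 4 calls (2 higher, 2 lower) of 10. Of all genes called, 51.0% were higher after scaling, 94.0% on deposited TPM and 61.1% after quantile normalization. Between the sexes in IN, 1 member (Hoxd4) passed on deposited TPM, relative to its median gene, and without male pool 3, and leaving out each pool gave 0 to 1; a replicate block between the sexes gave 0 in IP and 0 in IN, where pools share only a number (r of female and male deviations -0.299 to 0.101).

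On deposited TPM with no scaling the values that turned were Hoxa3 0.012, Hoxa4 0.77, Hoxa5 1.68, Hoxa6 0.95, Hoxa9 1.91, Hoxb3 1.43, Hoxb4 1.12, Hoxb6 0.90, Hoxb7 1.01, Hoxb9 0.10, Hoxc4 0.59, Hoxc6 0.98, Hoxc8 0.059, Hoxc9 1.15, Hoxc10 1.02, Hoxd3 0.42 and Hoxd10 1.16, all below the median shift of all genes (1.84) except Hoxa9. With quantile normalization they were Hoxa5 0.41, Hoxa6 0.11, Hoxa9 0.27, Hoxb3 0.23, Hoxb4 0.22, Hoxc9 0.29, Hoxc10 0.11 and Hoxd10 0.27. Without a filter it was Hoxa9 0.13. Relative to the median gene, an alternative chosen after seeing the data, they were Hoxb2 -0.48, Hoxd9 -0.044 and Hoxd11 -0.86. In this setting and with no scaling, 1 is added to unscaled TPM, so genes low in IN show less of the 1.84 shift. Deposited means were 2.84 TPM in IP and 0.484 in IN for Hoxb2, and 1.68 in IP and 0.301 in IN for Hoxd11. What else lay behind the turned values was not tested.

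The cluster shares moved when the members overlapping another entry were left out, by construction. The shares of cluster D and of paralogues 1 to 3 then rest mostly on Hoxd1. Cluster A then held 20.1% in IP and 17.3% in IN, B 17.6% in IP and 36.6% in IN, C 4.83% in IP and 9.11% in IN, and D 57.4% in IP and 37.0% in IN. Paralogues 1 to 3 held 45.2% in IP and 27.8% in IN, 4 to 8 held 18.4% in IP and 33.7% in IN, and 9 to 13 held 36.3% in IP and 38.5% in IN. Depth is unknown, so no counting limit could be set on members listed at 0.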
